A study of Mus musculus with 24 samples.

Results

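The respiratory chain genes described here were the 82 genes on the array whose names start with Nduf, with Sdha to Sdhd, with Uqcr, with Cox4 to Cox8 or with Atp5, of 27962 gene names in all. One probe per gene was used, the one with the highest mean intensity, out of 113 probes of these genes among 41174 probes on the array. Of the 82 genes, 35 encode subunits of complex I, 4 of complex II, 7 of complex III, 17 of complex IV and 15 of complex V. The other 4 genes share the start of a name without encoding a subunit, and Ndufa4, named for complex I, was counted with complex IV, where it is now placed. Complex IV genes include isoforms known from heart and skeletal muscle, lung or testis. Ndufa4l2 and Cox7b2 were not analysed here.

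Colon and liver RNA came from 12 female C57BL/6 mice aged 12 weeks. All mothers had eaten a high-fat diet (HF-low) with little selenium and folate from 7 days before mating to the end of lactation, and all offspring stayed on a high-fat diet. From weaning at about 28 days, 6 mice received the same low diet (HF-low-low) and 6 a high-fat one in which both nutrients were sufficient (HF-low-suf), so that no mouse had a low-fat diet and no mother a sufficient one. Each of the 24 arrays held the RNA of 1 tissue of 1 mouse, labelled with Cy3, beside a common reference, per the labels a pool of both tissues of all the mice, labelled with Cy5, and dyes were not swapped. All values are log2 ratios of sample to reference, so that a value compares samples for 1 gene and not 1 gene with another. Both samples were whole tissues, in which fewer cells of a type and less mRNA per cell cannot be told apart.

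The respiratory chain of the inner mitochondrial membrane passes electrons from NADH (complex I) or succinate (complex II) through ubiquinone to complex III, and from there through cytochrome c to oxygen at complex IV. Complexes I, III and IV pump protons out of the matrix, and complex V, the ATP synthase, uses the returning protons to make ATP. Nearly all the subunits are encoded in the nucleus and the others, whose genes are not among those listed here, in mitochondrial DNA. Hepatocytes are rich in mitochondria and oxidise fatty acids and amino acids, whereas colonocytes take much of their energy from butyrate.

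The tissue labels were checked with marker genes. Hepatocyte markers averaged between 1.26 and 1.96 in the livers and between -4.35 and -3.95 in the colons, and colon epithelium markers between 0.49 and 1.11 in the colons and between -4.49 and -3.17 in the livers. The colons also held smooth muscle, whose 8 markers averaged between 0.58 and 1.34 there and between -3.35 and -1.76 in the livers, and fat, whose 8 markers averaged between 0.96 and 2.64 in the colons and between -1.83 and 3.65 in the livers. The highest fat value among the livers was HF-low-suf replicate 1. Of the 82 genes, 77 were well above background on all 24 arrays, and 80 on at least 12. Cox4i2, the lung isoform, and Cox8c, the testis isoform, were not well above background and are given no fold change. None of the probes was saturated.

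Array probes of 60 bases from 4 genes are shown because their genes stand for the main patterns below: a complex II subunit and a c subunit of ATP synthase with more mRNA in the liver, and complex IV subunits with more in the colon. Each probe reads without a stop codon in at least 1 frame. The array files place the probes in build mm7, where that of Sdhb lies at chr4:140345040-140349607 on the plus strand (its span is longer than its sequence), that of Atp5g1 at chr11:96182649-96182708 on the minus strand and that of Cox4i1 at chr8:119308998-119309057 on the plus strand. For Cox7a1 the array file gives no position.
Sdhb: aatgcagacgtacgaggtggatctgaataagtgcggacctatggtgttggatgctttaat
Atp5g1: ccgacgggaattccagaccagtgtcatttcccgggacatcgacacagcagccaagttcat
Cox4i1: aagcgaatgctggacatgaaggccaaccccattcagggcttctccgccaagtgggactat
Cox7a1: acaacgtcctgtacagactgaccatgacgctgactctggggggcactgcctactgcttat

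The first comparison asked which subunits differed in mRNA abundance between liver and colon of the same mice. With the reported scaling, genes of complexes I and II were mostly somewhat higher in the liver, and the differences in complex IV ran both ways. The differences were small, and those of complexes I and II depended on the scaling. A gene was called where the Benjamini-Hochberg adjusted P of limma, over all probes, was below 0.05 and the fold change above 1.5. By this rule 6 genes were higher in the liver (Ndufa4, Ndufaf1, Cox6a2, Uqcrq, Ndufb5 and Atp5k) and 4 were lower (Cox7a1, Cox8a, Cox4i1 and Cox5a). That is 12.2% of the genes in either direction, below the 23.6% of all probes. Among all probes 11.4% were called higher and 12.2% lower. With each array centred on its median in place of loess, 3 genes were called higher and with the Cy3 channel used alone also 3, against 11 called lower with the Cy3 channel alone. On the slides of scan day 1 alone 16 were called higher and 0 lower, and on those of scan day 2 alone 4 higher and 6 lower. Without liver HF-low-suf replicate 2 there were 3 higher and 4 lower.

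At an adjusted P below 0.05 with any fold change, 38 of the 82 genes were higher in the liver, 11 were lower and 33 did not pass. With median centring 3 were higher and 10 lower, and with the Cy3 channel alone 12 were higher and 20 lower, so that the balance of higher and lower genes depended on the scaling. Among all probes, 19.4% were higher and 19.0% lower by this rule. The median difference over the 82 genes was 0.21 on the log2 scale, against 0.02 over all probes, and it was 0.02 with median centring and -0.02 with the Cy3 channel alone. Probes well above background on at least 12 arrays had a median of 0, and 45.5% of them were called at over 1.5-fold. The share of respiratory chain genes called was below that of well-measured probes, as counts without a test of the set.

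**Figure D1:**
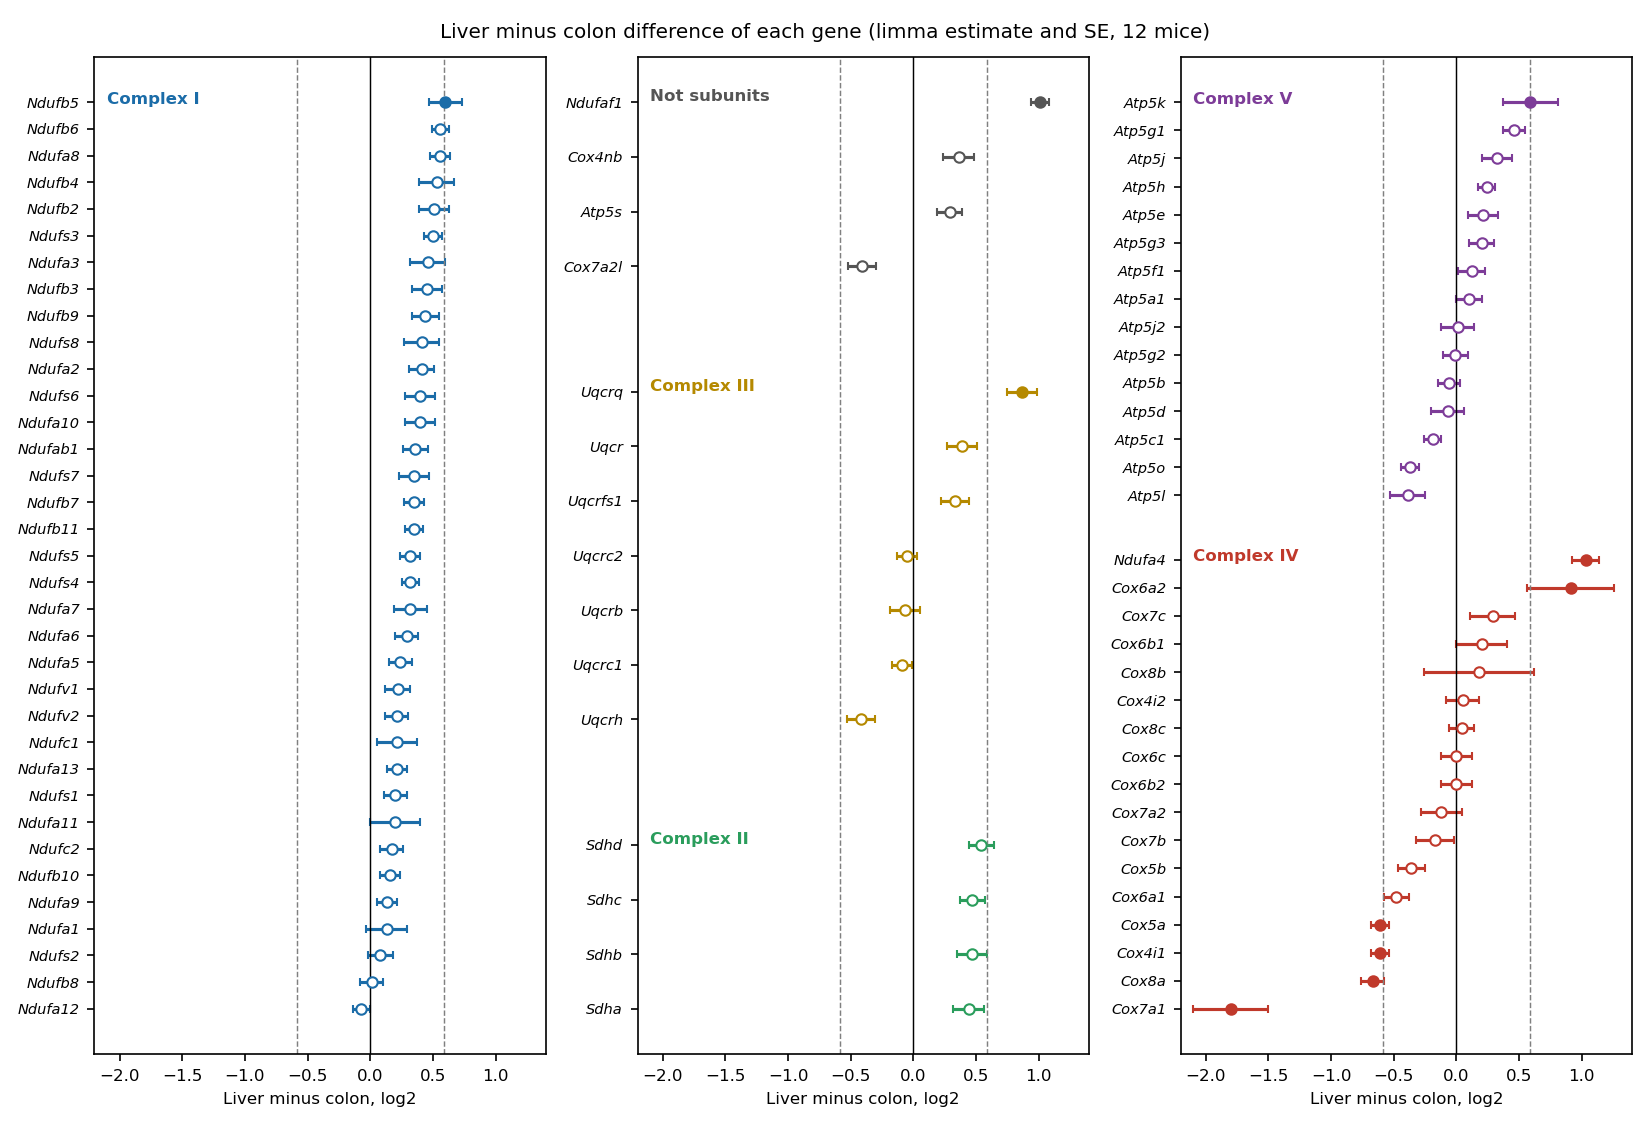
Liver minus colon log2 difference of each respiratory chain gene, 1 point per gene with its SE, grouped by complex, filled where called, with dashed lines at the 1.5-fold threshold (Cox4i2 and Cox8c were not well above background). Complex I lies almost wholly above 0 with a median of 0.32, while complex IV reaches from -1.80 (Cox7a1) to 1.03 (Ndufa4).

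Complex I oxidises NADH through core subunits that carry the flavin and iron-sulphur centres, surrounded by accessory subunits. Of its 35 genes, 34 had a positive difference and 22 passed the adjusted P as higher in the liver, with none lower. The median was 0.32, and the range was -0.07 (Ndufa12) to 0.60 (Ndufb5). Of the 7 core subunits 3 passed, with a median of 0.22, and of the 28 accessory subunits 19, with a median of 0.33. The size depended on the scaling: with median centring the median was 0.09 and 0 genes passed, and with the Cy3 channel alone it was 0.05, with 5 genes higher and 2 lower.

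Ndufb5, an accessory subunit of the membrane arm, ranged from -0.96 to -0.32 in the colons (median -0.76) and from -0.62 to 0.73 in the livers (median -0.14). The ranges overlapped, and the liver was higher in 11 of 12 mice. The difference of 0.60 (SE 0.13, adjusted P = 3.65e-04) was a 1.51-fold change, just past the threshold. Ndufb5 was the only complex I gene called with 1 probe per gene, and it was called under 17 of the 22 settings. Another probe of Ndufab1, not the one used, was also called higher, at 0.67 (adjusted P = 3.62e-05 by limma).

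Ndufs3, a core subunit, ranged from -0.72 to -0.14 in the colons (median -0.42) and from -0.10 to 0.25 in the livers (median 0.07). Every liver was above every colon. Its difference of 0.50 (SE 0.07, adjusted P = 1.72e-06) fell short of 1.5-fold. Ranges of liver and colon also did not overlap for Uqcrq, Cox4i1, Cox5a, Ndufa4 and Ndufaf1, 6 of the 82 genes in all, against 12.5% of all probes. Ndufb6, an accessory subunit, ranged from -1.15 to -0.58 in the colons (median -0.85) and from -0.68 to -0.19 in the livers (median -0.28). The liver was higher in all 12 mice, by 0.56 (SE 0.07, adjusted P = 4.28e-07), although the 2 ranges overlapped.

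Ndufb4 is shown with Ndufs5 because both passed the adjusted P, at differences of 0.53 and 0.32, and because their promoters hold a motif of a known regulator of these genes. NRF-1, a transcription factor that regulates many nuclear genes of the respiratory chain, binds a GC-rich site written here as GCGCA, any base and then GCGC. RefSeq sequences of 250 bases upstream of the start, in build GRCm38.p6, are printed 5′ to 3′ on the gene's strand with the motif in capitals. Cox6a1, a complex IV subunit that was lower in the liver, is added for comparison. Ndufb4 lies at chr16:37654369-37654618, Ndufs5 at chr4:123718187-123718436 and Cox6a1 at chr5:115348959-115349208, all on the minus strand.
Ndufb4: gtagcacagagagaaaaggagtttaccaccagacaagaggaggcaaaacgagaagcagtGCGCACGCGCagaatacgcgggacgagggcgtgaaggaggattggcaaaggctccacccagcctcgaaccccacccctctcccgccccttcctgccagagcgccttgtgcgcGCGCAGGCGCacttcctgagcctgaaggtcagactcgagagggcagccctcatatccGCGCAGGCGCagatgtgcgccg
Ndufs5: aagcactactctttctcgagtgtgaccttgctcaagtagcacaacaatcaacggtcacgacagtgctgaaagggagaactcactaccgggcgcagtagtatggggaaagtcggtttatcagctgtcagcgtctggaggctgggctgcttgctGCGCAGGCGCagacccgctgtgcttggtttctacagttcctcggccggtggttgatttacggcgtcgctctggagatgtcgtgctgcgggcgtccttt
Cox6a1: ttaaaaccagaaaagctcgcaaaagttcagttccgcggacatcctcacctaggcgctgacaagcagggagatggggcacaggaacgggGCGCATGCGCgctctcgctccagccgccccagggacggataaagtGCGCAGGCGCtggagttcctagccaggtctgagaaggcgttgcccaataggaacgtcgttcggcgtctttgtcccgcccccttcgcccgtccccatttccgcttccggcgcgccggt

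All 82 genes matched RefSeq names, and 67 had a promoter in the table used. On either strand the NRF-1 letters were found in 13 of these 67 windows (19.4%), against 4.23% of 27025 genes with such a window. By complex these were 6 of 31 in complex I, 2 of 3 in complex II, 0 of 4 in complex III, 1 of 12 in complex IV and 4 of 14 in complex V. The letters CCGGAAGT of the GABP (NRF-2) site were found in 4.48% against 3.23%, AAGATGGCG of YY1 in 1.49% against 0.71%, and TCAAGGTCA of the oestrogen-related receptors in 1.49% against 0.422%. The NRF-1 letters thus stood in the promoters of genes on both sides of the tissue difference. At least 1 of the 4 motifs was found in 17 windows (25.4%, against 8.13% of all genes), of which 1 held more than 1 of them, and a match describes letters and not binding.

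Complex II, succinate dehydrogenase, links the tricarboxylic acid cycle to the chain and is the only complex encoded wholly in the nucleus. All 4 genes passed the adjusted P as higher in the liver, none over 1.5-fold, with a median of 0.47. With median centring the median was 0.16 and 0 of the 4 passed, and with the Cy3 channel alone it was 0.30 and 1 passed. With the median over the probes of each gene 3 of the 4 passed. Sdhd, a membrane anchor, ranged from -0.52 to 0.39 in the colons (median 0.05) and from 0.20 to 0.87 in the livers (median 0.44). The ranges overlapped, but the liver was higher in all 12 mice, by 0.54 (SE 0.10, adjusted P = 8.07e-05).

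Sdhc, the other anchor, ranged from -1.05 to 0.14 in the colons (median -0.34) and from -0.30 to 0.47 in the livers (median 0.21), a difference of 0.47 (SE 0.10, adjusted P = 4.68e-04). Sdhb, the iron-sulphur subunit whose probe is printed above, ranged from -1.10 to -0.09 in the colons (median -0.56) and from -0.97 to 0.37 in the livers (median -0.03), a difference of 0.47 (SE 0.12, adjusted P = 0.00181). For both genes the ranges overlapped, and the liver was higher in 11 of 12 mice. Sdha, the flavoprotein that holds the succinate site, ranged from -1.11 to -0.04 in the colons (median -0.63) and from -0.54 to 0.39 in the livers (median -0.16). It was higher in the liver in 10 of 12 mice, by 0.44 (SE 0.12, adjusted P = 0.00507). Another probe of Sdha, well above background on all 24 arrays, was at 0.21 (adjusted P = 0.306 by limma).

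Complex III takes electrons from ubiquinol to cytochrome c. Of its 7 genes 3 passed as higher in the liver and 1 as lower, with a median of -0.05. With median centring the median was -0.24, with 1 gene higher and 1 lower. With the Cy3 channel alone it was -0.26, with 1 higher and 3 lower. Uqcrq, a small subunit near the cytochrome b core, was the one called. Its values ran from -2.08 to -0.67 in the colons (median -0.97) and from -0.57 to 0.12 in the livers (median -0.18). No liver fell within the colon range, and the difference of 0.87 (SE 0.12, adjusted P = 7.78e-07) was 1.83-fold. The Rieske protein gene Uqcrfs1 (0.33) and Uqcr (0.39) passed at less than 1.5-fold. Uqcrh, the acidic hinge protein that meets cytochrome c1, was lower in the liver, at -0.42 (SE 0.11, adjusted P = 0.00281). The core proteins Uqcrc1 (-0.09) and Uqcrc2 (-0.05) did not pass.

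Complex IV, cytochrome c oxidase, had the widest range of differences among its genes, from -1.80 to 1.03. Of its 17 genes 2 were called higher and 4 lower, 35.3% in either direction, between the 23.6% of all probes and the 45.5% of those well above background. At any fold change 2 passed as higher and 6 as lower, with a median of 0.00. This median was -0.27 with median centring, -0.39 with the Cy3 channel alone, -0.22 with signals processed by Feature Extraction and -0.16 with plain background subtraction. With only probes well above background, which leaves out Cox4i2 and Cox8c, it was -0.12, and 6 of 15 genes had a positive difference. Cox4i1, the common isoform of subunit IV whose probe is printed above, ranged from -0.03 to 0.49 in the colons (median 0.08) and from -0.69 to -0.17 in the livers (median -0.53). Every liver was below every colon, with a difference of -0.61 (SE 0.07, adjusted P = 7.34e-08), 1.52-fold higher in the colon. Cox5a, a matrix-side subunit, ranged from -0.43 to 0.17 in the colons (median -0.26) and from -1.11 to -0.68 in the livers (median -0.86). It was again below the colons in every liver, with a difference of -0.61 (SE 0.07, adjusted P = 4.31e-08).

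Ndufa4 went the other way within the same complex. It ranged from -1.78 to -0.65 in the colons (median -1.23) and from -0.44 to 0.36 in the livers (median -0.25). The ranges did not overlap. The difference of 1.03 (SE 0.11, adjusted P = 6.93e-09) was 2.05-fold, the largest of any subunit in that direction. Ndufa4 was called under all 22 settings tried, the reported one included. Of 4 further subunits Cox5b passed, at -0.36 and short of 1.5-fold, while Cox6c (0.00), Cox7b (-0.17) and Cox7c (0.29) did not pass.

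**Figure D2:**
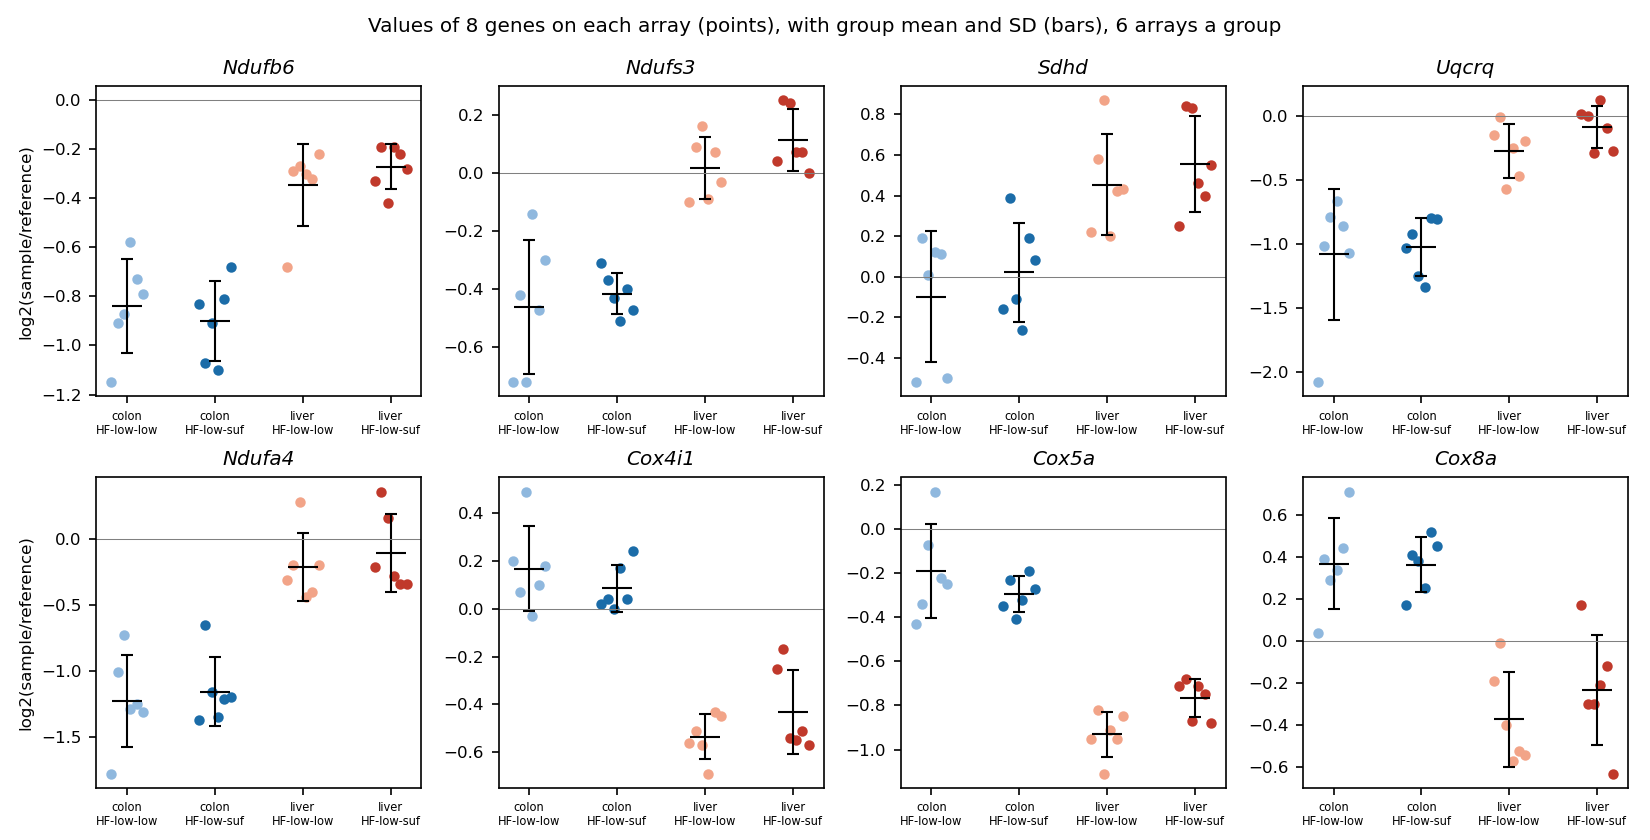
Log2 ratio of sample to reference of 8 genes on each of the 24 arrays, as points by tissue and diet, with bars at the group means and their SD. Livers lie wholly above the colons for Ndufs3, Uqcrq and Ndufa4 and wholly below them for Cox4i1 and Cox5a, while Ndufb6, Sdhd and Cox8a overlap.

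Several complex IV subunits exist as isoforms of different tissues, a liver (or common) type and a heart and skeletal muscle type. None of the 3 liver types passed as higher in the liver. Cox8a ranged from 0.04 to 0.71 in the colons (median 0.38) and from -0.63 to 0.17 in the livers (median -0.30). It was lower in the liver in 11 of 12 mice, at -0.67 (SE 0.09, adjusted P = 8.47e-07), 1.59-fold higher in the colon. Cox6a1, whose promoter is printed above, was at -0.48 (SE 0.10, adjusted P = 1.68e-04), lower in 10 of 12 mice and short of 1.5-fold. Cox7a2 (-0.12, adjusted P = 0.623) did not pass, with 6 mice in each direction.

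Among the muscle types, Cox7a1 ranged from -2.2 to -0.52 in the colons (median -0.95) and from -3.90 to 0.29 in the livers (median -3.28). It was lower in the liver in 11 of 12 mice, and 1 liver lay above every colon. The difference of -1.80 (SE 0.30, adjusted P = 1.67e-05) made the mRNA 3.47-fold more abundant in the colon, and without that liver it was -2.06. Smooth muscle and fat markers were also mostly higher in the colons. Their median liver minus colon differences were -3.28 (8 of 8 called lower) and -3.10 (6 of 8), and the part of either in the Cox7a1 difference was not tested. Within the slides of scan day 1 the difference was -1.14 (adjusted P = 0.0706) and within those of day 2 it was -2.45.

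Cox6a2 and Cox8b were far below the reference in both tissues. Cox6a2 ranged from -5.10 to -4.55 in the colons (median -4.90) and from -5.06 to 0.41 in the livers (median -4.31). Its signal in the colons was 9.85 to 21.0 times background, against 692 to 1060 times in the reference. Averaged over the 24 arrays on the linear scale, the samples held 0.0963 of the reference level of Cox6a2 and 0.159 of that of Cox8b, against a median of 0.838 over the 82 genes. Dyes were not swapped, so that the content of the reference and a dye effect of these probes cannot be told apart. The liver was higher in 10 of 12 mice, by 0.91 (SE 0.35, adjusted P = 0.0401). Without 1 liver the difference was 0.53 (adjusted P = 0.0063), so that the fold change and not the adjusted P depended on it. It was called under 11 of the 22 settings. Skeletal muscle markers were also mostly higher in the livers, 9 of 14 by the same call with a median of 0.75, and their part in the difference was not tested. Cox8b ranged from -4.62 to -2.88 in the colons (median -3.70) and from -5.47 to 0.52 in the livers (median -4.15). Its difference of 0.18 (SE 0.44, adjusted P = 0.806) did not pass.

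The liver in question was HF-low-suf replicate 2, in which Cox6a2 was at 0.41, Cox7a1 at 0.29 and Cox8b at 0.52. In HF-low-suf replicate 1 the values were -4.23, -1.49 and -0.37, so Cox7a1 and Cox8b were raised there without Cox6a2. In the other 10 livers all 3 genes lay between -5.47 and -2.92. A list of 14 skeletal muscle markers averaged -2.28 in HF-low-suf replicate 2 and between -4.71 and -3.57 in the other livers, and 8 fat markers averaged 3.65 in HF-low-suf replicate 1 and between -1.83 and -0.01 in the others. All 14 skeletal muscle markers were well above background in both tissues, and their mean lay below the reference on every array (-5.12 to -2.28). Whether muscle or fat tissue in these livers took part in the values was not tested.

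**Figure D3:**
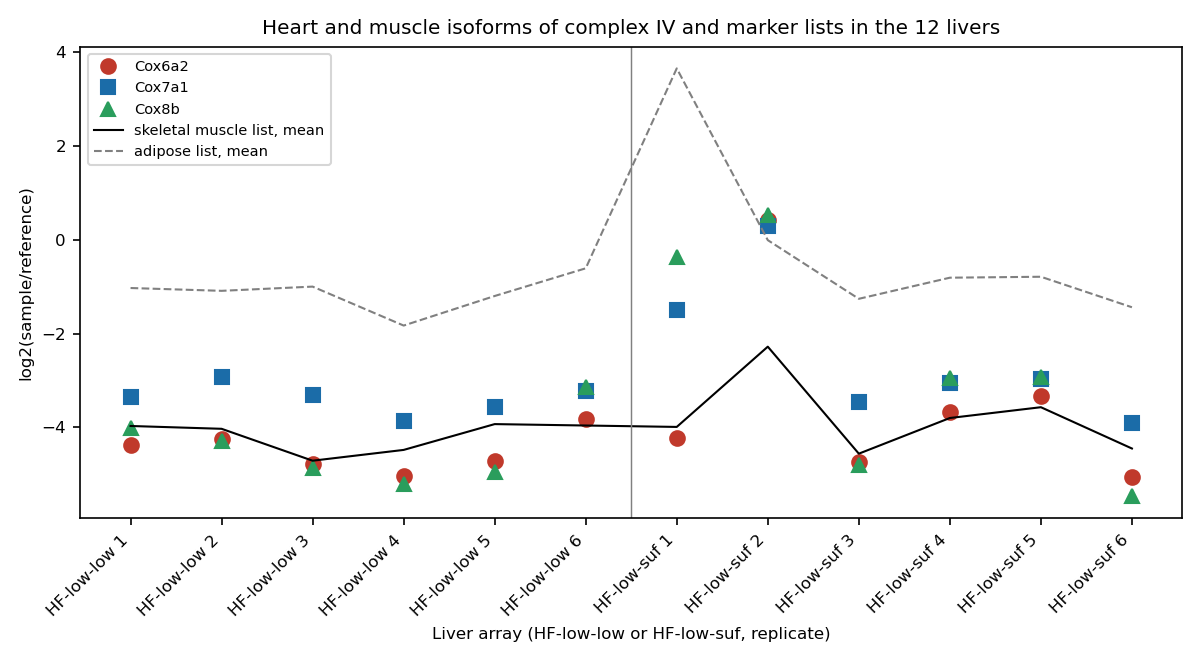
Log2 ratio of Cox6a2, Cox7a1 and Cox8b, isoforms known from heart and skeletal muscle, in each of the 12 livers, with the mean of the skeletal muscle and fat marker lists as lines. Liver HF-low-suf replicate 2 lies above 0 for all 3 genes (0.41, 0.29 and 0.52), and replicate 1 is raised for Cox8b (-0.37) and Cox7a1 (-1.49).

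For the remaining pairs, Cox6b1 (0.20, adjusted P = 0.509) and its testis isoform Cox6b2 (0.00, adjusted P = 0.986) did not pass, and the sign of Cox6b1 turned to -0.23 with median centring and that of Cox6b2 to between -0.27 and -0.08 under 5 other scalings or background corrections, median centring among them.

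Complex V had a median of 0.10, with 4 of its 15 genes higher in the liver by adjusted P and 3 lower. This median was -0.27 with the Cy3 channel alone and -0.01 with median centring. The c ring that turns with the protons is made of 1 mature protein from 3 genes, which were not tested against each other. Atp5g1, whose probe is printed above, ranged from -1.04 to -0.15 in the colons (median -0.46) and from -0.28 to 0.36 in the livers (median -0.08). The liver was higher in all 12 mice, by 0.46 (SE 0.09, adjusted P = 7.84e-05), but the difference was 0.25 (adjusted P = 0.227) with median centring and 0.24 (adjusted P = 0.0817) with the Cy3 channel alone. Atp5g2 (-0.01, SE 0.10, adjusted P = 0.959) and Atp5g3 (0.20, SE 0.10, adjusted P = 0.157) did not pass, and Atp5g3 turned to -0.05 with the signals processed by Feature Extraction and -0.23 with the Cy3 channel alone.

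Atp5k, subunit e, ranged from -2.42 to 0.36 in the colons (median -0.06) and from -0.40 to 0.96 in the livers (median 0.27). The ranges overlapped widely, and the liver was higher in 8 of 12 mice. Its call at 0.59 (SE 0.22, adjusted P = 0.0302) depended on the setting and was made under 13 of 22. Without colon HF-low-low replicate 1 the difference was 0.40, and without liver HF-low-suf replicate 2 it was 0.54 (adjusted P = 0.0587). Within scan day 1 it was 1.08, within scan day 2 it was 0.11 (adjusted P = 0.793), and with median centring it was 0.30 (adjusted P = 0.386). Atp5o, the oligomycin sensitivity protein of the stalk, was lower in the liver in all 12 mice, at -0.37 (SE 0.07, adjusted P = 3.76e-05). The catalytic subunit Atp5b (-0.06) did not pass, and neither did Atp5a1 (0.10), although another probe of Atp5a1 was at -0.41 (adjusted P = 0.00404). Among 18 genes with more than 1 probe well above background, the probes of 4 lay on both sides of 0.

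Of the 4 genes that encode no subunit, Ndufaf1, a complex I assembly factor, ranged from -0.66 to -0.02 in the colons (median -0.46) and from 0.37 to 0.87 in the livers (median 0.58). The ranges did not overlap, and the difference of 1.01 (SE 0.07, adjusted P = 7.45e-12) was 2.02-fold and called under all 22 settings. Cox7a2l, a gene related to Cox7a and known as a supercomplex assembly factor, was lower in the liver in all 12 mice, at -0.41 (SE 0.11, adjusted P = 0.00233). Whether its protein acts in this way in these mice was not measured. Cox4nb, RefSeq's Emc8, is the direct neighbour of Cox4i1, with 0 genes between them, and was higher in the liver by 0.36 (SE 0.12, adjusted P = 0.0187) where Cox4i1 was lower. Atp5s was at 0.29. With median centring the signs of both turned, to -0.05 for Cox4nb and -0.10 for Atp5s.

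Taken mouse by mouse, the median liver minus colon difference over the genes of complex I was positive in 12 of 12 mice (0.09 to 0.62, median 0.24). For complex II it was positive in 11 of 12 mice (-0.12 to 0.99, median 0.46), for complex III in 8, for complex V in 8, and for complex IV in 5 (-0.72 to 0.54, median -0.32). The difference between complex I and complex IV was positive in every mouse, with a mean of 0.46 ± 0.25 (SD, n = 12), and complex II exceeded complex IV in 9 of 12 mice. Over the settings tried, the median of complex I stayed above that of complex IV, by 0.32 to 0.64, including the settings in which the liver minus colon difference of complex I itself was small. Exact permutation tests over the 12 mice, two-sided with sign changes, gave the smallest P they can give, 0.000488, for 15 genes (18.3%), 11 of them higher and 4 lower in the liver in every mouse, against 19.9% of all probes and 42.8% of those well above background on at least 12 arrays.

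**Figure D4:**
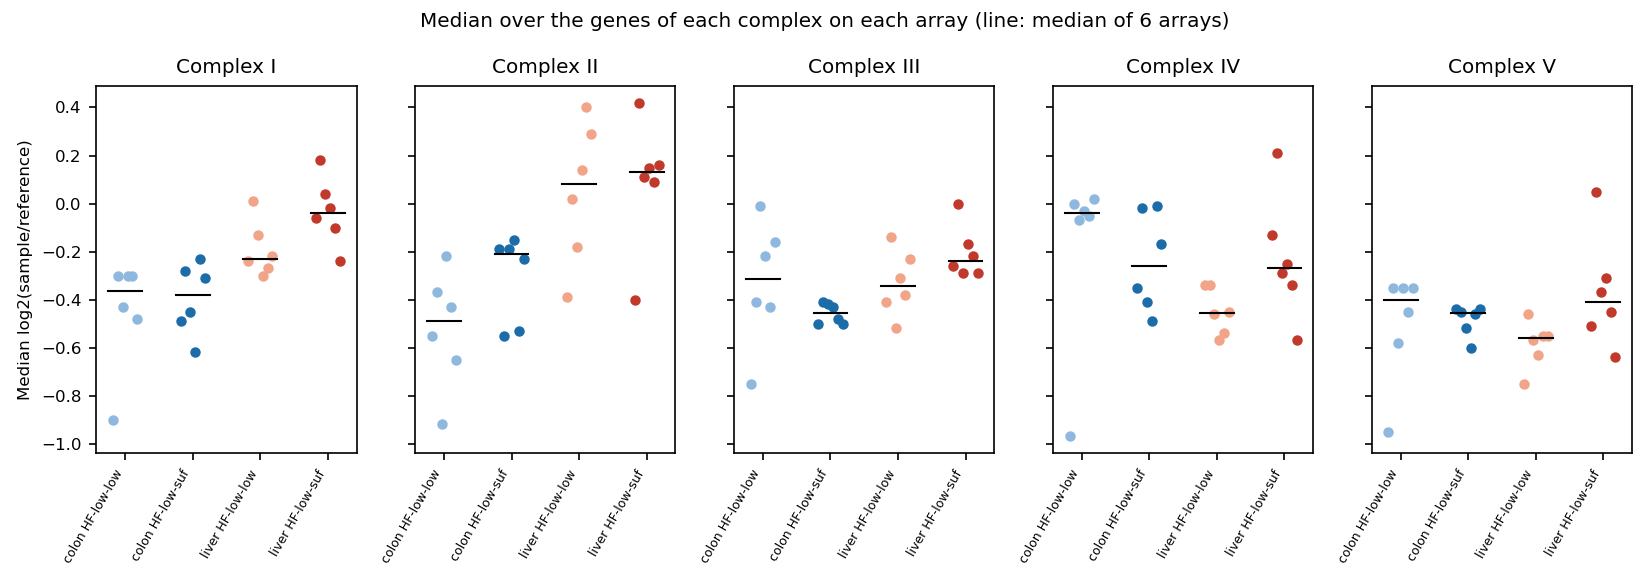
Median log2 ratio over the genes of each complex on each array (points), by tissue and diet, with a line at the median of 6 arrays. Most livers lie above most colons for complexes I and II and not for complex IV, and colon HF-low-low replicate 1 is the lowest array over all 82 genes (-0.89).

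The genes around the chain were described with lists chosen beside the members. Of 17 assembly factors measured besides Ndufaf1, 7 were called higher in the liver and 1 lower, with a median of 0.34. In either direction 23.6% of all probes were called, and 45.5% of those well above background on at least 12 arrays. Nubpl, which delivers iron-sulphur clusters to complex I, was at 1.05 (SE 0.10), Lrpprc, which stabilises mitochondrial mRNA, at 0.93 (SE 0.10), and Tmem70, an ATP synthase assembly factor, at 0.89 (SE 0.11). Sco1, a copper chaperone of complex IV, was at -0.67 (SE 0.11).

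Of 17 electron carriers and other dehydrogenases that feed ubiquinone, 5 were called higher and 2 lower. That is 41.2%, against 23.6% of all probes and 45.5% of those well above background on at least 12 arrays. The genes of the electron transfer flavoprotein route, through which fatty acid oxidation enters the chain, were called higher: Etfa at 1.35 (SE 0.11), Etfb at 1.29 (SE 0.09) and Etfdh at 2.03 (SE 0.11). Prodh, the proline dehydrogenase, was at 2.78 (SE 0.11), and cytochrome c, Cycs, was at -0.09 (SE 0.07, adjusted P = 0.363). Of 8 carriers and uncouplers none was called higher and 4 were called lower, 50% against the same shares of 23.6% and 45.5%. Atpif1, the inhibitor of ATP hydrolysis by complex V, was at -2.60 (SE 0.13, adjusted P = 1.28e-15), Ucp2 at -1.59 (SE 0.12), and the ADP/ATP carriers Slc25a4 and Slc25a5 at -1.04 (SE 0.19) and -0.62 (SE 0.12). The difference of Atpif1 was larger in size than that of any subunit.

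The second comparison asked whether selenium and folate after weaning changed the mRNA abundance of these genes. Differences are HF-low-suf minus HF-low-low, from sample over reference, the opposite sign to most of the diet fold changes the study lists, although its text gives myoglobin the sign it has here in the liver. The direction used here follows the dyes in the labels, with the sample in Cy3, and is the one in which hepatocyte markers were higher in the livers. No gene of the 82 was called between the diets in either tissue at the study's threshold of an unadjusted limma P below 0.01 and a fold change above 1.5, against 0.117% of all probes in the liver and 0.168% in the colon. No probe on the array passed a Benjamini-Hochberg adjusted P below 0.05 in either tissue. Of the 17020 probes well above background on at least 12 arrays, 2 in the liver and 3 in the colon passed the study's threshold. An unadjusted limma P below 0.05 was found for 72 of them in the liver and 158 in the colon. At an unadjusted P below 0.05, 1 gene of the 82 was different in each tissue, against 2.13% of all probes in the liver and 2.98% in the colon.

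In the liver that gene was Ndufa11, an accessory subunit of complex I. It ranged from -0.49 to 0.32 in HF-low-low (median -0.03) and from -0.06 to 1.0 in HF-low-suf (median 0.28). The groups overlapped, and the difference of 0.42 (SE 0.19) had an unadjusted P = 0.0425, an adjusted P = 1 and an exact permutation P = 0.0498. In the colon it was Sdhc, with values from -1.05 to -0.27 in HF-low-low (median -0.48) and from -0.41 to 0.14 in HF-low-suf (median -0.04). The groups overlapped, and the difference of 0.45 (SE 0.16) had an unadjusted P = 0.0124, an adjusted P = 1 and an exact permutation P = 0.0173. For Sdhc the value moved to 0.79 with median centring, the single setting in which it was called, and to -0.30 with the Cy3 channel alone. The spot of Sdhc was not well above background on 1 colon array, HF-low-suf replicate 6 (log2 ratio 0.11), where the sample was 4.3 times and the reference 4.69 times background, against 47.6 to 191 and 258 to 358 times on the other colon arrays. Without that array the difference was 0.41 (unadjusted P = 0.0301).

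Although no single gene passed, 81 of the 82 differences in the liver were positive, 98.8% of them against 51.4% of all probes and 55.1% of probes well above background on at least 12 arrays. With the sign turned, 1 of 82 would be positive. The genes share arrays, so this is a description of 12 livers and not of 82 observations. The median was 0.14, against 0.01 over all probes. Among the lists of other genes, the difference was positive for 71 of 75 genes of the mitochondrial ribosome (94.7%, median 0.10), 8 of 8 carriers and uncouplers, 15 of 17 electron carriers and dehydrogenases, 13 of 16 genes of the tricarboxylic acid cycle and pyruvate dehydrogenase, 12 of 18 assembly factors, 5 of 8 genes that maintain mitochondrial DNA and 7 of 12 of the outer membrane and import. Among the markers it was positive for 4 of 7 of hepatocytes, 8 of 9 of colon epithelium, 14 of 14 of skeletal muscle (median 0.31), 8 of 8 of fat (median 1.04), 8 of 8 of smooth muscle and 3 of 3 of erythrocytes. The share thus varied between lists, high in some outside the chain and near that of all probes in others, with no test of the differences. Without HF-low-suf replicates 1 and 2 the skeletal muscle median was 0.05 (11 of 14 positive) and the fat median 0.08 (5 of 8 positive), and several fat markers were above background in few livers (Adipoq in 1 of 12, Plin in 2). The part of these tissues in the direction was not tested. The median over the 82 genes ran from -0.37 to -0.12 in the 6 HF-low-low livers (median -0.28) and from -0.31 to 0.17 in the 6 HF-low-suf livers (median -0.13), so that the groups overlapped. The highest was HF-low-suf replicate 2, without which 74 of 82 differences were positive with a median of 0.09. By complex the median differences were 0.13, 0.07, 0.15, 0.20 and 0.12 for complexes I to V.

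The largest liver differences were those of the muscle isoforms. Cox8b ranged from -5.21 to -3.14 in HF-low-low (median -4.58) and from -5.47 to 0.52 in HF-low-suf (median -2.94), a difference of 1.75 (SE 0.86, unadjusted P = 0.0609, exact permutation P = 0.13). Cox6a2 was at 1.06 (unadjusted P = 0.156) and Cox7a1 at 0.95 (unadjusted P = 0.11). These values rested on HF-low-suf replicates 1 and 2, without which they were 0.38, 0.29 and 0.03. Sdha had the single negative difference, -0.16 (unadjusted P = 0.386). The exact permutation test, not adjusted over genes, gave P below 0.05 for 7 of the 82 genes in the liver, all higher in HF-low-suf, against 2.21% of all probes, and for 1 in the colon (Sdhc), against 3.24%. By limma it was 1 gene in each tissue, as above. Besides Ndufa11 the liver genes by this exact test were Cox5a (P = 0.0152), Ndufa12 (P = 0.0216), Atp5j (P = 0.0303), Ndufa6 (P = 0.0368), Atp5j2 (P = 0.0433) and Uqcrb (P = 0.0476), chosen after their values were seen.

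In the colon 51 of 82 differences were positive (62.2%, against 48.3% of all probes), with a median of 0.03. The count fell to 20 of 82 without HF-low-low replicate 1, with a median of -0.07, and was 79 with median centring. It was 64 on the slides of scan day 1 (median 0.12) and 20 on those of scan day 2 (median -0.09), so that the direction depended on 1 colon, on the scaling and on the scan day. This colon had a median of -0.89 over the 82 genes, where the other 11 colons lay between -0.57 and -0.22. Cox4i2 and Cox8c, not well above background, were left out of the following ranking. After Sdhc the largest colon differences were Cox6b1 (0.25, unadjusted P = 0.497) and Sdha (0.22, unadjusted P = 0.288), and the lowest were Cox8b (-0.31, unadjusted P = 0.224), Atp5g3 (-0.13, unadjusted P = 0.441) and Cox5a (-0.11, unadjusted P = 0.413).

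**Figure D5:**
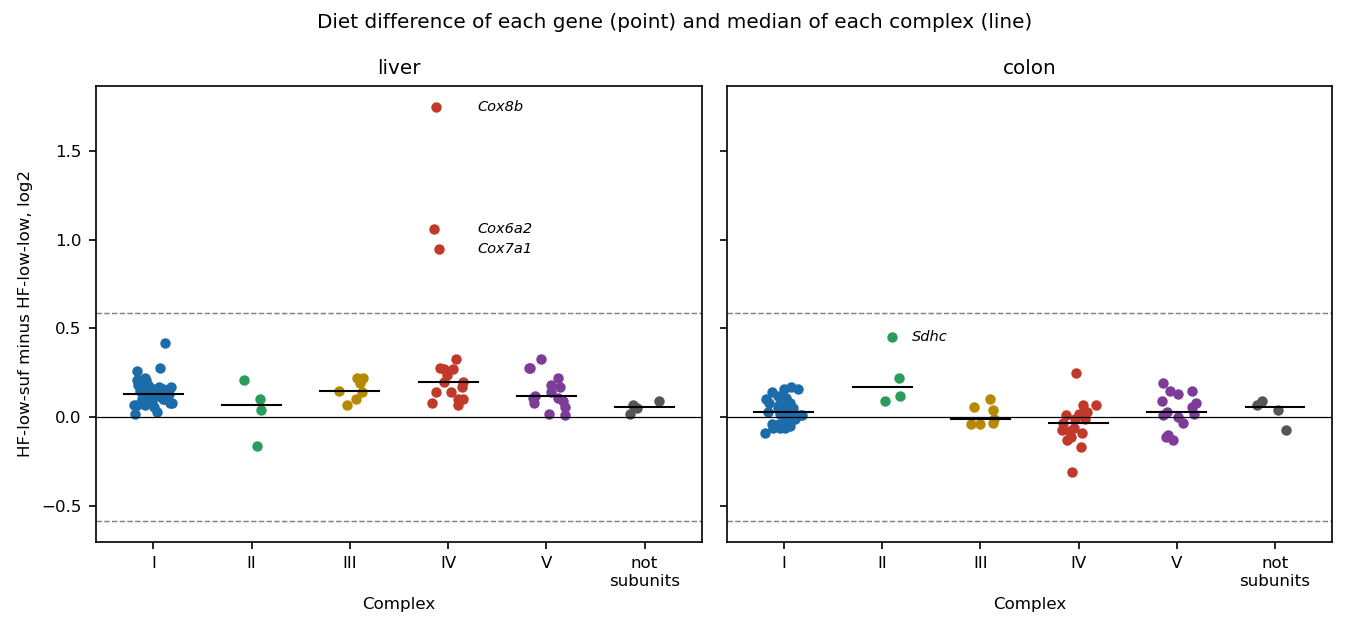
HF-low-suf minus HF-low-low log2 difference of each gene in liver and colon (points), by complex, with a line at the median of each complex and dashed lines at 1.5-fold. In the liver 81 of 82 genes lie above 0 with a median of 0.14, and in the colon 51 of 82 with a median of 0.03.

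None of the 82 genes passed the test of a different diet effect in the 2 tissues. No probe on the array had an adjusted P below 0.05 for the interaction, and 6.43% had an unadjusted P below 0.05, against 1 of the 82 genes. That gene was Cox8b, with an interaction of 2.06 (SE 0.88, unadjusted P = 0.0269, adjusted P = 0.722) in which the liver value rested on the 2 livers named above.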

How the data were processed

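Total RNA from colon and liver was measured on 24 two-colour arrays, 6 per tissue and diet, with replicate numbers equal to slide numbers. The intensity values deposited by the authors are Feature Extraction's mean spot signals and median local backgrounds in both dyes, before normalization. Signals were corrected with normexp (offset 50), normalized by loess within each array and averaged per probe in limma 3.58.1 (statmod 1.5.0, R 4.3.3). Deposited processed intensities served as an alternative, and the log10 ratios deposited by the authors were not used. Tissues were compared with limma over 24 arrays, with mouse as a random block (correlation 0.158) because colon and liver share an animal. Deviations of the 2 tissues of a mouse correlated between -0.12 and 0.37. Diets were compared with limma on the 12 arrays of a tissue, and single genes also by exact permutation over 924 assignments of mice. Arrays of a group correlated between 0.777 and 0.959, and none were duplicates.

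Named in the tissue comparison were up to 3 called genes per complex and direction, the isoform families and the Sdh genes, and between diets the 3 largest differences each way. Other members described, such as Ndufs3, Ndufb6, Uqcrh, Cox5a and Atp5o, were chosen after their values were seen. Members and lists (7 of pathways, 6 of markers) were chosen with earlier results of these data known. On simulated data the tissue test called 98% of 200 probes changed 1 log2 unit, among 10000, and 1 unchanged probe. The diet rule called 90% with 58 unchanged probes in the liver and 91.5% with 44 in the colon. The simulated noise was normal and independent between probes. Most differences reported here were smaller than 1 log2 unit, and the simulation does not show how often such differences would be called. Median signal over background was 3.78 to 7.20 in Cy3 and 5.41 to 18.1 in Cy5. The number of arrays limits the precision. Alternatives were other background corrections and scalings, one dye alone, kept outlier spots, a filter on dim probes, scan days, blocks and arrays left out.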

Additional observations from a re-analysis of the deposited data

Results flagged for a closer look

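In the series of 6 samples tested for the named genes (100 in all), 8 had 1 sample far from the other 5, and chance alone gives about 1 in 20. No explanation was weighed for any of them.

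Colon HF-low-low replicate 1 was the lowest of its group for Atp5k, at -2.42 with the next colon at -0.44, and for Uqcrq, at -2.08 with the next at -1.07. Liver HF-low-suf replicate 2 was the highest of its group for Cox6a2, at 0.41 with the next liver at -3.34. Colon HF-low-suf replicate 2 was the highest for Ndufa4, at -0.65, and for Atp5g3, at -0.75. Liver HF-low-low replicate 3 was the highest for Ndufa4, at 0.28, replicate 2 the highest for Atp5g1, at 0.23, and replicate 1 the lowest for Sdhb, at -0.97.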

How the results depend on the processing

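Of 883 values recomputed under the alternatives, 790 counted as unchanged. For a single gene this meant the same direction and side of the threshold. For a count it meant a change of at most 1.5-fold, and for a median a change smaller than the SD between mice. The sign of a median could therefore turn: that of complex V was -0.02 with plain background subtraction and counted as unchanged. The causes of the changes below were not tested. Genes called higher in the liver, 6 as reported, numbered 3 with median centring, with the Cy3 channel alone and without liver HF-low-suf replicate 2, 16 on the slides of scan day 1, 38 at any fold change and 2 at over 2-fold. Leaving out single arrays gave 3 to 6. Genes called lower, 4 as reported, numbered 2 without background correction, 11 with Cy3 alone, 0 on scan day 1, 11 at any fold change and 1 at over 2-fold. The median of complex I was 0.09 with median centring, and with Cy3 alone the medians of complexes I, III and V were 0.05, -0.26 and -0.27. The median of complex IV was -0.44 on scan day 2. With median centring 1 gene, Sdhc, was called between diets in the colon. Signals processed by Feature Extraction moved the median of all probes to -0.19 in the tissue comparison.

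Among the genes named by the rule, signs turned only in differences that were not called. Atp5g2 was 0.02 without background correction, 0.20 on scan day 1 and -0.07 to 0.01 with 1 array left out (0.01 without colon HF-low-suf replicate 5, 0.00 without replicate 6). Atp5g3 was -0.05 with Feature Extraction signals and -0.23 with Cy3 alone. Cox6b1 was -0.23 with median centring and -0.30 on scan day 2. Cox6b2 was -0.09 with plain subtraction, -0.08 without correction, -0.27 with median centring, -0.22 with Feature Extraction signals, -0.12 with Cy3 alone, -0.21 on scan day 2, -0.04 to 0.04 with 1 array left out and -0.02 without liver HF-low-suf replicates 1 and 2. Cox8b was, in the same order, -0.16, -0.06, -0.23, -0.58, -0.04 and -0.44, and -0.13 to 0.27 with 1 array left out and -0.50 without liver HF-low-suf replicates 1 and 2. On scan day 1 Cox7a2 was 0.22 and Cox7b 0.12. Between diets in the colon, Sdhc was -0.30 with Cy3 alone, Cox6b1 -0.31 on scan day 2 and -0.11 to 0.19 with 1 array left out (-0.11 without colon HF-low-low replicate 1), and with median centring Atp5g3 was 0.02 and Cox5a 0.04.

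With the slide number as a replicate block, 0 genes were called between diets in either tissue, with medians of 0.14 in the liver and 0.03 in the colon, and arrays with the same number share a slide and its scan day but, across diets, no animal (deviations of 2 arrays of a slide correlated between -0.57 and 0.64, over 0.1 in 6 of 12 pairs). In the tissue comparison, no replicate block or mouse as a fixed block gave 5 genes higher and 4 lower and 0 interactions. Leaving out colon HF-low-low replicate 1, colon HF-low-suf replicate 6, or liver HF-low-suf replicates 1 and 2 together, was chosen after seeing the data. Dim probes limit Cox4i2 and Cox8c, for which no difference was detectable.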

Other observations

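In 4 further lists of mitochondrial genes 25% to 50% were called between liver and colon, against 23.6% of all probes and 45.5% of those well above background on at least 12 arrays, with no test of the lists. Of 75 genes of the mitochondrial ribosome, 26 were called higher in the liver and 2 lower, with a median of 0.44. Mrps10 was at 1.18 (SE 0.08) and Mrps6 at -0.70 (SE 0.08). In the tricarboxylic acid cycle and pyruvate dehydrogenase, 4 of 16 genes were called higher and 2 lower. Fumarate hydratase, Fh1, was at 1.41 (SE 0.10), while citrate synthase, Cs, was at -0.87 (SE 0.09) and Pdha1, the alpha subunit of pyruvate dehydrogenase, at -0.84 (SE 0.09).

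Of 12 genes of the outer membrane and protein import, 4 were called higher and 2 lower, with the import receptor Tomm70a at 0.90 (SE 0.08) and the channel Vdac2 at -1.27 (SE 0.10). Of 8 genes that maintain mitochondrial DNA, 2 were called higher and none lower. Tfb1m, which methylates mitochondrial ribosomal RNA, was at 1.02 (SE 0.08), and Tfam, which packages mitochondrial DNA, at 0.26 (SE 0.42, adjusted P = 0.699 by limma). Between the diets no gene of these 4 lists was called in either tissue. Of 3 erythrocyte genes all 3 were called higher in the liver.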
